A study of Mus musculus with 2 samples.

Results

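The mitochondrial ribosomal proteins were followed in pancreatic lymph nodes of diabetic mice, with the large and the small subunit set side by side. The members are all gene probes of the array, control spots left out, whose deposited gene name begins with Mrpl (large subunit) or Mrps (small subunit) followed by a digit. This rule found 126 probes for 75 genes among 41174 gene probes for 27845 gene names, with 76 probes for 46 genes of the large subunit and 50 probes for 29 genes of the small subunit. Of these, 51 probes for 43 genes are in the authors' table of log2 ratios and are called measured here, 35 probes for 30 genes of the large subunit and 16 probes for 13 genes of the small. The rule used names alone and no measured value.

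The mice were female NOD (non-obese diabetic) mice, 16 weeks old, a strain that develops autoimmune diabetes; no transgene or treatment is named in the labels. RNA of each of 2 hyperglycemic mice, with blood glucose above 500 mg/dl, was labelled with Cy5 and hybridised to its own two-colour Agilent array. Its comparison on the same array, labelled with Cy3, was 1 shared RNA pool of 2 euglycemic mice, with blood glucose below 200 mg/dl. The tissue is a whole lymph node, so fewer cells of a type and less RNA per cell cannot be told apart. A single control pool gives no spread among euglycemic mice, and hyperglycemic RNA always carried Cy5, so a dye effect of a gene cannot be told apart from a difference between the groups.

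Mitochondria hold their own ribosomes, which translate the few proteins encoded by mitochondrial DNA, all of them subunits of the respiratory chain and the ATP synthase. The ribosomal RNAs also come from mitochondrial DNA, but every protein of this ribosome is encoded in the nucleus, made in the cytosol and imported. The small subunit decodes the messenger RNA, and the large subunit joins the amino acids and releases the chain through an exit tunnel close to the inner membrane. Part of the proteins have bacterial counterparts, and others occur only in mitochondria. In lymphocytes, mitochondrial translation is known to support activation and division. Gene names do not always follow the structure: Mrps30 and Mrps18a sit in the large subunit of the mammalian mitoribosome, and Mrps36 was later described as a part of the alpha-ketoglutarate dehydrogenase complex. They are counted here by name.

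The arrays held 43379 gene spots each. Signals of the hyperglycemic channel (medians of 37.7 and 38.2 over a local background of 35) lay near background, while the pool channel had medians of 234 and 81.2 over 31 and 31.5. The 5072 gene probes of the deposited table had signals well above background for mouse and pool alike on each array, and ratios of the 2 mice correlated over them (Pearson r = 0.828, across probes that share a slide and the control pool). In that table all 5 measured T cell markers were lower (median log2 ratio -1.21), 2 of 3 B cell markers were lower (median -0.48), 8 of 13 exocrine pancreas markers were higher and 1 lower (median 0.67), and all 3 erythroid markers were higher (median 1.17). The pan-leukocyte gene Ptprc was at -1.12 and the stromal chemokine gene Ccl19 at -1.04, both lower. The signal of both was well above background in all channels, as for every gene probe of that table. In scanner signals normalised again, the exocrine and erythroid medians were 4.73 and 3.26, the T cell median was -0.57, and Ccl19 was at 1.01, the opposite sign.

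Detection set which members could be compared. The pool channel was well above background on both arrays for 78 member probes (61.9%, against 20.5% of all gene probes), and the hyperglycemic channel for 51 (40.5%, against 12.9%). The pool channel was well above background at 61.8% of large-subunit and 62.0% of small-subunit probes. The hyperglycemic channel was well above background on both arrays at 46.1% of large-subunit and 32.0% of small-subunit probes. In 20 member probes the pool was well above background on both arrays and the hyperglycemic channel on neither (15.9%, against 5.54% of all gene probes). They were 8 of the large (10.5%) and 12 of the small subunit (24%). A channel that is not well above background is called dim here. The measured members are thus those bright enough in the hyperglycemic mice, and a count of directions among them leaves such probes out.

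Among the 43 measured genes, 4 were higher and 10 lower in the hyperglycemic mice (limma's moderated test of the mean log2 ratio against 0, Benjamini-Hochberg adjusted p under 0.05 over all 5072 probes), and 29 did not pass. That is 32.6% of the measured genes, beside 43.6% of all 4413 genes in the table, where 25.4% were higher and 18.2% lower. The share called was below that of all genes. The split between higher and lower depended on the threshold, since at an unadjusted p under 0.05 10 genes were higher and 12 lower. Of all 4413 genes 1330 were higher and 990 lower at that threshold. Counted over probes, 4 of 51 were higher and 10 lower, beside 25.1% and 18.4% of all probes (43.5% in either direction). Their median log2 ratio over genes was 0.11 (0.09 in mouse 1 and 0.01 in mouse 2), and that of all genes was 0.07. The genes ranged from -1.51 to 1.32, with an SD among genes of 0.61 against a median SD between the 2 mice of 0.16. The ratio was above 0 in both mice for 22 genes, below 0 in both for 16 and of mixed sign for 5. Among all 4413 genes these counts were 1989, 1624 and 800. The spread among the member genes was larger than the spread between the mice, as it was over all 4413 genes (0.67 against 0.16).

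**Figure D1:**
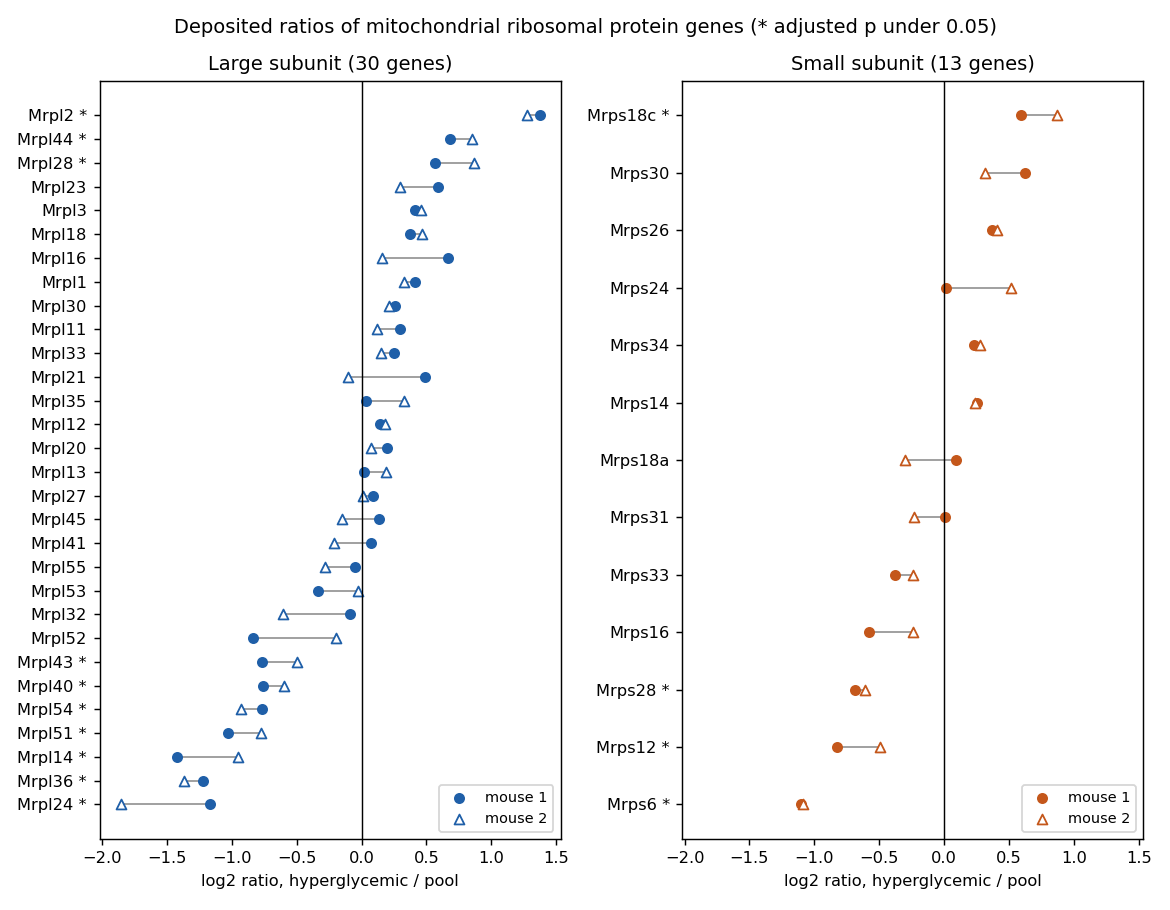
Log2 ratio of hyperglycemic mouse over euglycemic pool (x axis) for each of the 30 large-subunit and 13 small-subunit genes (y axis) in the deposited table, with a filled circle for mouse 1, an open triangle for mouse 2 and an asterisk for an adjusted p under 0.05. Both panels run from genes below -1 in both mice (Mrpl36, Mrps6) to genes above 0.5 in both (Mrpl2, Mrps18c), and the 2 mice of a gene mostly lie closer to each other than the genes do.

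Within the large subunit 3 of 30 genes were higher and 7 lower, with 20 not called (33.3% called). Mrpl24, whose bacterial counterpart takes an early place in assembly of the large subunit, had log2 ratios of -1.17 and -1.85 in the 2 mice. Its mean was -1.51 ± 0.48 (SD, n = 2 mice), 2.85-fold lower than the pool, with an adjusted p of 0.00173 (limma). Both mice were below the pool, and the second was the lowest value of any measured member. Mrpl36, a small zinc-binding protein, had ratios of -1.22 and -1.37, a mean of -1.29 ± 0.10 and 2.45-fold lower (adjusted p = 0.00139, limma). Mrpl14, which lies at the face toward the small subunit and is the site where the assembly factor Malsu1 binds, had ratios of -1.42 and -0.95 (mean -1.19 ± 0.33, 2.28-fold lower, adjusted p = 0.00262, limma). These 3 genes were the lowest of the large subunit, and each was below 0 in both mice.

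The other 4 lower large-subunit genes encode proteins found in mitochondrial and not in bacterial ribosomes. Mrpl51 had log2 ratios of -1.02 and -0.78 (mean -0.90 ± 0.18, adjusted p = 0.00473, limma). Mrpl54 had ratios of -0.76 and -0.93 (mean -0.85 ± 0.11, adjusted p = 0.00541). Mrpl40 had ratios of -0.76 and -0.60 (mean -0.68 ± 0.11, adjusted p = 0.0121), and Mrpl43 followed with -0.77 and -0.50 (mean -0.63 ± 0.19, adjusted p = 0.0174). Every one of these 4 genes was below 0 in both mice, by 1.55-fold to 1.87-fold in the mean.

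The higher large-subunit genes were Mrpl2, Mrpl44 and Mrpl28. Mrpl2, the counterpart of a bacterial protein next to the peptidyl transferase centre, had log2 ratios of 1.37 and 1.28 (mean 1.32 ± 0.07, 2.50-fold higher, adjusted p = 0.00124, limma). This was the highest mean ratio among the measured members. The raw Cy5 signal of Mrpl2 was low but not dim as defined here, at 52.4 and 58.3 over local backgrounds of 31 and 35. That is 1.69 and 1.67 times the background, beside medians of 1.72 and 1.89 for the measured member probes. The Mrpl2 probe spans 153 bases of build mm8 rather than the 60 of most probes. Mrpl44, a protein with a ribonuclease III fold, had ratios of 0.68 and 0.85 (mean 0.77 ± 0.12, adjusted p = 0.00788). Its 2 other probes were dim in the hyperglycemic channel, with processed log2 ratios of -0.73 and -1.08 for one and 1.04 and -1.14 for the other. Mrpl28 had ratios of 0.57 and 0.86 (mean 0.71 ± 0.21, adjusted p = 0.0116) from one of the brightest member spots, with Cy5 at 5.09 and 7.65 times its local background.

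The 20 large-subunit genes that were not called had means from -0.52 to 0.44. Mrpl52 was the lowest, with -0.84 and -0.19 (mean -0.52 ± 0.46, adjusted p = 0.066, limma), a gap between the mice larger than that of most genes. Mrpl32, which in its mature form follows cleavage by the m-AAA protease, was at -0.35, Mrpl53 at -0.18, Mrpl55 at -0.17, Mrpl41 at -0.07 and Mrpl45, which faces the inner membrane at the exit tunnel, at -0.01. Above 0 lay Mrpl27 at 0.05, Mrpl13 at 0.11, Mrpl20 at 0.14, Mrpl12 of the factor-binding stalk at 0.16, Mrpl35 at 0.18, Mrpl21 at 0.19, Mrpl33 at 0.20, Mrpl11 of the stalk base at 0.21 and Mrpl30 at 0.23. Mrpl1 was at 0.37, Mrpl16 at 0.41, Mrpl18 at 0.42, Mrpl3 at 0.43 and Mrpl23, near the exit tunnel, at 0.44. These last 5 genes were above 0 in both mice, with adjusted p from 0.0536 to 0.0993 (limma). Signs differed between the mice for Mrpl21 (0.49 and -0.10), Mrpl41 (0.07 and -0.21) and Mrpl45 (0.13 and -0.15).

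Within the small subunit 1 of 13 genes was higher and 3 lower, with 9 not called (30.8% called). Mrps6, a protein of the subunit's platform, had log2 ratios of -1.10 and -1.09 (mean -1.10 ± 0.01, 2.14-fold lower, adjusted p = 0.00213, limma). The 2 mice lay closest together for this gene of all that were called. Mrps12, a protein of the decoding centre, had ratios of -0.83 and -0.50 (mean -0.66 ± 0.23, adjusted p = 0.0164), and Mrps28 had -0.69 and -0.61 (mean -0.65 ± 0.06, adjusted p = 0.0136). Mrps18c was the higher gene, with 0.59 and 0.87 (mean 0.73 ± 0.20, adjusted p = 0.0104).

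Mrps18c is one of 3 related genes in mammals that descend from a single bacterial ribosomal protein gene. Its relative Mrps18a was at 0.09 and -0.30 (mean -0.11 ± 0.28, adjusted p = 0.642, limma). The third, Mrps18b, was not measured: its hyperglycemic channel was dim on both arrays for all 3 probes. The other small-subunit genes had means from -0.41 to 0.47. Mrps16 was at -0.41, Mrps33 at -0.31 and Mrps31 at -0.12, while Mrps14 was at 0.24, Mrps34 at 0.25, Mrps24 at 0.27 and Mrps26 at 0.39. Mrps30 was highest of these, with 0.62 and 0.32 (mean 0.47 ± 0.22, adjusted p = 0.0515), just short of the threshold. Mrps31 was of mixed sign (0.01 and -0.24), as was Mrps18a.

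Set side by side, the 2 subunits had like shares of called genes and overlapping ratios. The median log2 ratio was 0.12 for the 30 genes of the large subunit (0.11 in mouse 1 and 0.04 in mouse 2). It was -0.05 over 39 large-subunit genes when the scanner signals were processed again as described further on. For the 13 genes of the small subunit the deposited median was -0.11 (0.02 and -0.24), so its sign differed between the mice. The difference of 0.23 between these medians was 0.09 in mouse 1 and 0.28 in mouse 2, the same sign in both. With 2 mice an exact sign-flip test of it could not go below p = 0.5 and so decides nothing either way. Genes within a subunit ranged widely, with an SD among genes of 0.64 in the large and 0.53 in the small subunit. Counted over probes, the difference between the subunit medians was 0.10. Counted over genes, it was 0.24 with Mrps30 and Mrps18a placed in the large subunit, a grouping chosen after the data were seen. Large-subunit genes had the same sign in both mice in 16 cases above and 11 below 0, and small-subunit genes in 6 above and 5 below.

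**Figure D2:**
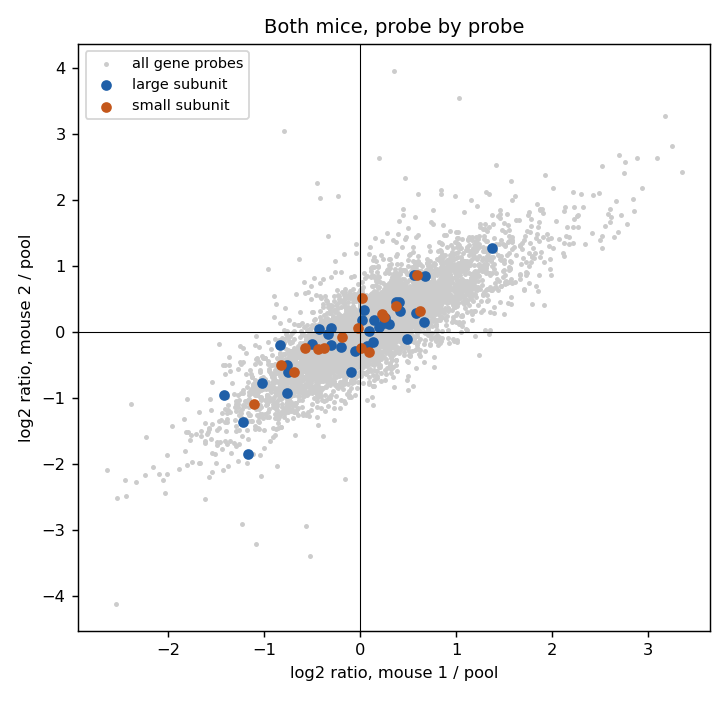
Log2 ratio in mouse 1 (x axis) against mouse 2 (y axis) for the 5072 gene probes of the deposited table (grey), with the 35 large-subunit probes in blue and the 16 small-subunit probes in orange. Member probes of both subunits lie along the diagonal among the other probes, from Mrpl24 (-1.17 and -1.85) to Mrpl2 (1.37 and 1.28).

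Across the 43 genes the 2 mice correlated with a Pearson r of 0.884 and a Spearman rho of 0.851, a description over genes that share the slide, the dyes and the control pool. The ratio did not follow brightness among the members (Spearman rho of -0.03 over 43 genes), and over all 5072 probes rho was -0.13. Cy5 of the measured member probes was 1.21 to 5.89 times its local background on array 1 (median 1.72) and 1.37 to 7.65 times on array 2 (median 1.89). Most members were thus read from spots less than 2 times as bright as their surroundings.

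**Figure D3:**
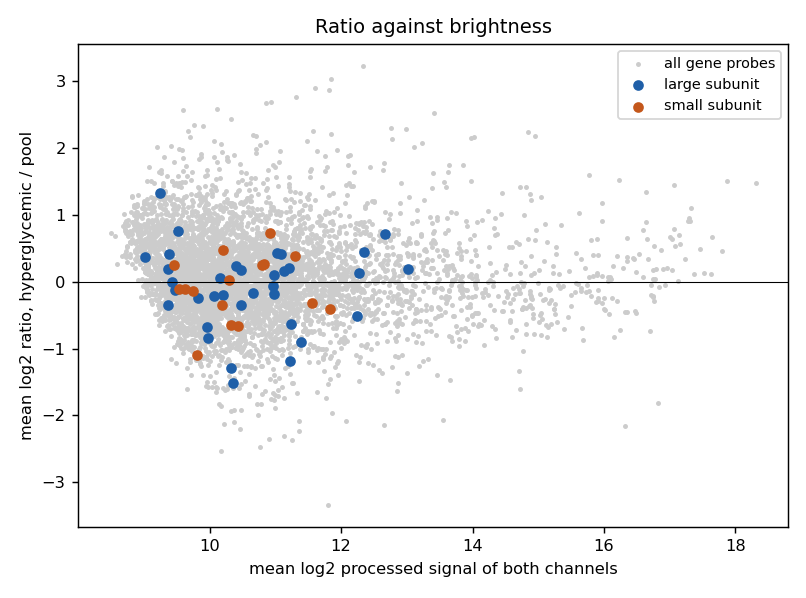
Mean log2 ratio (y axis) against the mean log2 processed signal of both channels (x axis) for the 5072 gene probes of the deposited table (grey), the large-subunit probes (blue) and the small-subunit probes (orange). The members sit mainly in the left part of the plot, where signals are low, and both higher and lower members occur there (Mrpl2 at 1.32 and Mrps6 at -1.10).

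Probes for the same gene showed how far a single probe can be read as its gene. Of the measured genes, 7 have more than 1 probe in the deposited table, others have further probes outside it, and the value of a gene is that of its brightest probe. The 3 Mrpl18 probes gave means of 0.42, -0.21 and -0.25, so the brightest probe had the opposite sign to the others in both mice. The gap was 0.67 in mouse 1 and 0.66 in mouse 2, while the mice differed by an SD of at most 0.08 for any of these probes. Mrps26 likewise gave 0.39 for the brighter and -0.13 for the other probe, with opposite signs in both mice. Neither gene was called.

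Among the called genes, the second measured probe of Mrps18c was at 0.02 (adjusted p = 0.930, limma) beside 0.73 for the first. Mrpl40 was at -0.12 with its second probe beside -0.68, and Mrpl43 at -0.34 beside -0.63. Mrpl3, not called, gave 0.43 and -0.19. Only the 2 probes of Mrps33 lay within 0.04 of each other (-0.31 and -0.35). In Mrpl28 the second probe was dim in the hyperglycemic channel, with processed ratios of -0.89 and -0.78, opposite in sign to the called probe. In Mrps6 the second probe was dim too and below 0, at -0.81 and -2.24.

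**Figure D4:**
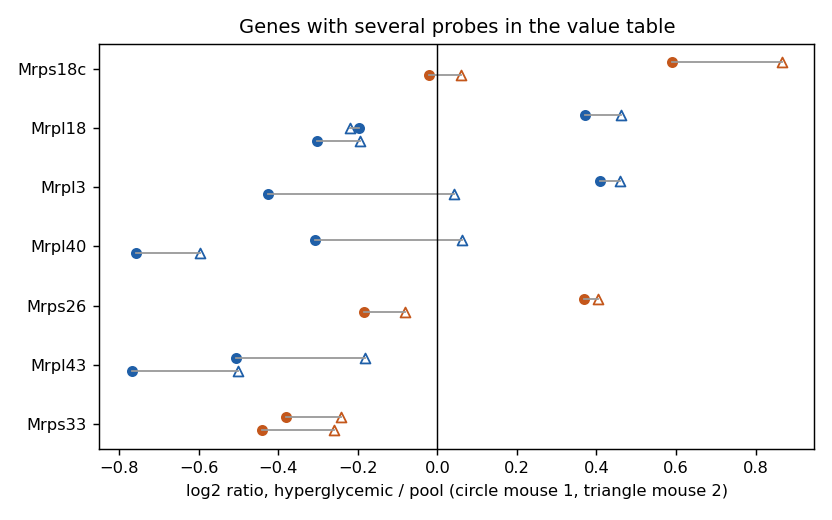
Log2 ratio of each probe (x axis) for the 7 genes with more than 1 probe in the deposited table (y axis), with circles for mouse 1, triangles for mouse 2 and a line joining the 2 mice of a probe; blue is the large and orange the small subunit. The probes of Mrpl18 and Mrps26 lie on both sides of 0, and those of Mrps33 lie together.

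The lower and higher probes are spread over the genome. On build mm8, as the array files give it, the probe of Mrpl24 lies at chr3:88009142-88009201, that of Mrpl36 at chr13:73798069-73798128, that of Mrps6 at chr16:92000837-92000896 and that of Mrpl2 at chr17:46111543-46111695. Mrpl14 lies on the same chromosome as Mrpl2, at chr17:45161949-45162008, and was lower where Mrpl2 was higher. Exons and untranslated regions of this build were not used here.

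The start regions of the 2 lowest and the 2 highest genes by mean ratio, Mrpl24, Mrpl36, Mrpl44 and Mrpl2, are shown so that genes at both ends can be compared. Sequences are from RefSeq on build GRCm38.p6, all on the plus strand: chr3:87919344-87919543, chr13:73330809-73331008, chr1:79775818-79776017 and chr17:46646021-46646220, each the 200 bases before the transcription start. Capitals mark matches on either strand to the letters searched, which are given after the sequences. No match in them overlaps another.
Mrpl24: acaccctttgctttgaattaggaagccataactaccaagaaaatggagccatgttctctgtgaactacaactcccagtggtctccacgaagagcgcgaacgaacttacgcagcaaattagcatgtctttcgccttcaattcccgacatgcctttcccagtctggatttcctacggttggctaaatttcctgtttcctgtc
Mrpl36: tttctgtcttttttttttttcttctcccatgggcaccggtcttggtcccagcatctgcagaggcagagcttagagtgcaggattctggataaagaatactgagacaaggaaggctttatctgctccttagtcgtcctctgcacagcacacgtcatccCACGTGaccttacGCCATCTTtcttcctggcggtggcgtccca
Mrpl44: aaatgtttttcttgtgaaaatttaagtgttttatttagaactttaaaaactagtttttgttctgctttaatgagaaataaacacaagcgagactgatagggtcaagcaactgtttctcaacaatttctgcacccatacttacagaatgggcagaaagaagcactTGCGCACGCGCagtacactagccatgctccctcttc
Mrpl2: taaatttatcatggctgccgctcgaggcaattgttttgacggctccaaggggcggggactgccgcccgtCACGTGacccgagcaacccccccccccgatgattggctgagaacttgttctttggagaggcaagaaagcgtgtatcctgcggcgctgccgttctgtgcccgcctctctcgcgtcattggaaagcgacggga
In Mrpl36 an E-box (CACGTG) stands 5′ of a YY1 match read on the minus strand, in Mrpl44 an NRF1 match stands close to the start, and in Mrpl2, whose first listed of 3 start sites is shown, an E-box stands farther upstream. The last 2 also have an ETS match in the wider window described next, outside the printed bases. Mrpl24 holds none of the letters searched.

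Start regions of 300 bases (250 before to 50 after the start) were matched by symbol for 66 of the 75 member genes, with 72 windows among 32851 of all genes. These letters are short, were searched on both strands and name families of factors known to act on housekeeping genes. The ETS core CCGGAA was in 56.9% of member windows, 55.6% of the large and 59.3% of the small subunit, and in 14.9% of all windows. The YY1 letters AAGATGGC were in 15.3% of member windows and 2.75% of all, and the NRF1 letters (TGCGCA, any base, GCGC) in 8.33% and 2.44%. The E-box CACGTG was in 9.72% and 7.15%, and TATAAA in 6.94% and 13.6%. Member windows had a median GC content of 58.5%, and all windows one of 52.7%, and its part in these matches was not tested. Of the called genes with a window, the ETS core was found in all 4 higher genes and in 4 of 8 lower genes, and of the genes not called in 17 of 27. The windows hold these letters; whether a factor binds there was not measured.

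The same arrays processed again from raw scanner signals gave smaller ratios for most members. There the background was corrected by normexp, channels were balanced by loess, and 78 member probes for 63 genes were kept, which needed 1 of their channels well above background on each array. Of these genes 2 were higher and 0 lower (limma), or 3.17%. Beside this stood 5.62% of all 7310 genes (5.16% higher and 0.465% lower) and 5.23% of all 8815 probes (4.74% higher and 0.488% lower). At an unadjusted p under 0.05, 4 of the 63 member genes were higher and 12 lower, beside 864 and 660 of all 7310 genes. The higher genes were Mrpl28, with 0.85 and 1.08 (mean 0.97, adjusted p = 0.0148), and Mrpl33, with 0.96 and 0.53 (mean 0.75, adjusted p = 0.0487). All 14 genes called in the deposited ratios had the same sign here, but Mrpl28 alone was called again. Mrpl24 was at -0.58, Mrpl14 at -0.51 (adjusted p = 0.0512) and Mrpl36 at -0.44, while Mrpl2 was at 0.28.

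**Figure D5:**
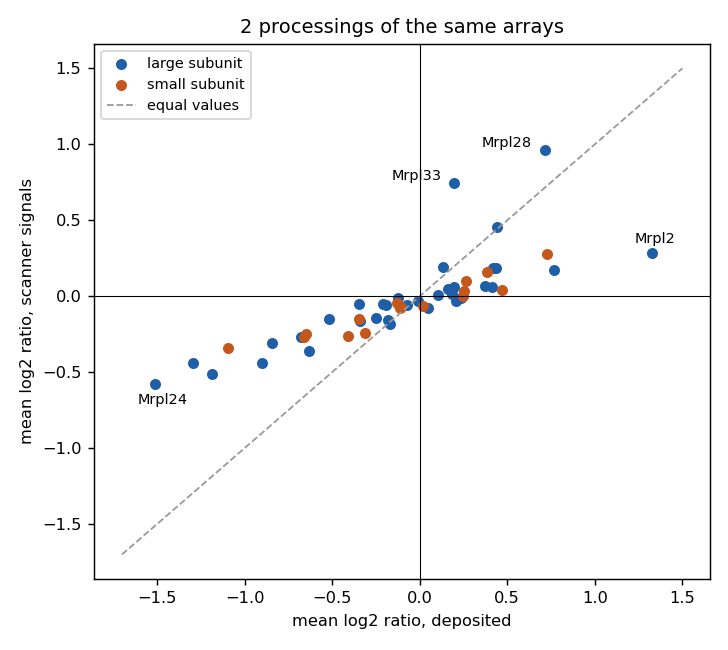
Mean log2 ratio from the deposited table (x axis) against that from scanner signals processed again (y axis) for the measured member probes, large subunit in blue and small subunit in orange, with a dashed line of equal values. Most probes lie closer to 0 on the y axis than on the x axis, such as Mrpl24 (-1.51 and -0.58), and Mrpl28 and Mrpl33 lie above the line.

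In that processing the subunits again had medians close to each other, -0.05 for 39 large-subunit and -0.08 for 24 small-subunit genes, and all genes had a median of -0.03. The difference between the subunits was 0.02.

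The 32 genes outside the deposited table, 16 of each subunit, were known mostly from the pool channel. For 23 of them no probe was well above background in the hyperglycemic channel on either array. The brightest in the pool were Mrpl34 of the large and Mrps17 of the small subunit. Mrpl34 had processed log2 ratios of -0.97 and -1.04, with its hyperglycemic channel well above background on array 2 only. Mrps17 had -0.74 and -1.24, well above background on array 1 only, and its other probe had -0.17 and -0.09 and was not well above background in that channel on either array. No gene outside the table had probes of opposite sign on both arrays.

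Where the hyperglycemic channel was not well above background and the pool was, the size of a ratio cannot be read, and no fold is given. Of the 20 such probes 17 had processed ratios below 0 on both arrays, 0 above 0 on both and 3 of mixed sign, with medians of -0.75 and -0.71. Choosing probes that are bright in the pool and dim in the hyperglycemic channel itself favours ratios below 0. These counts and medians therefore give no separate result on direction. In the scanner signals processed again none of them passed the test. Mrps15, with processed ratios of -2.06 and -1.91, was there at -0.27 (adjusted p = 0.301, limma), and Mrps10, with -1.46 and -1.28, at -0.25 (adjusted p = 0.340). These 2 probes thus had the same sign in both processings of the same arrays, which the choice also favours, and ratios of different size.

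The euglycemic pool was read on each array, and its 2 readings show how evenly member probes were scanned. Among measured members the raw Cy3 signal on array 1 was 1.37 to 2.51 times that on array 2 (median 1.73). Outside the table the pool's readings could differ far more: a Mrps30 probe read 1315 on array 1 and 40.1 on array 2, a ratio of 32.7, and a Mrpl3 probe gave a ratio of 22.6. Local Cy3 background on array 1 exceeded 100 at 20 member probes, 10 of them measured, and at 16.3% of all gene probes, and on array 2 it exceeded 100 at 0 member probes. Among the called genes these were Mrpl28 (201), Mrpl43 (161.5) and Mrpl51 (132), whose second arrays were at 31.5, 35 and 30.5.

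Proteins of the same ribosome whose gene names do not begin with Mrp and a subunit letter were listed apart. The list also holds Oxa1l, an insertase of the inner membrane that binds the ribosome. Of its 8 genes 6 were measured, with 0 higher and 2 lower and a median of -0.13. Of all 4413 genes 25.4% were higher and 18.2% lower. In the scanner signals 0 of the 8 listed genes were called. Ict1, now Mrpl58, a peptidyl-tRNA hydrolase built into the large subunit, was at -0.75 and -0.47 (mean -0.61, adjusted p = 0.0202, limma). Aurkaip1, a small-subunit protein, was at -0.47 and -0.51 (mean -0.49, adjusted p = 0.036). Dap3, the GTP-binding protein of the small subunit, was at -0.09, Chchd1 at -0.18, Ptcd3 at 0.04 and Mrp63, now Mrpl57, at 0.16, none of them called.

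The factors that work with this ribosome were called in both directions, beside 25.4% higher and 18.2% lower of all 4413 genes. Of 13 translation factors on the array 2 were measured. Tufm, the elongation factor that brings aminoacyl-tRNA, was lower at -0.67 and -1.07 (mean -0.87), and Guf1, a factor related to bacterial LepA, was higher at 1.01 and 0.92 (mean 0.97). Of 27 assembly and mitochondrial RNA factors 7 were measured, with 3 higher and 1 lower. Tfam, which packages and transcribes mitochondrial DNA, was at 2.55 and 1.61 (mean 2.08 ± 0.67), higher also in the scanner signals at 2.55. Malsu1, which binds Mrpl14, was higher at 0.82 where Mrpl14 was lower at -1.19, and Mtg1, a GTPase of large-subunit assembly, was higher at 0.66. Slirp, which stabilises mitochondrial messenger RNA, was lower at -0.68. The list of mitochondrial aminoacyl-tRNA synthetases, which also holds Qrsl1, Gatb, Gatc and Pet112l, had 24 gene names on the array. Of these 2 were measured: Lars2 was higher at 0.91 and Tars2 was at 0.08. In the scanner signals Lars2 was called higher too, at 1.89. Guf1 (0.30), Tufm (-0.44), Malsu1 (0.40), Mtg1 (0.15) and Slirp (-0.35) had the same sign there and were not called.

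Import and folding genes were called in both directions too, beside 25.4% higher and 18.2% lower of all 4413 genes. In the scanner signals 0 import genes and 0 chaperones and proteases were called. Of 22 import genes on the array 15 were measured, with 2 higher and 3 lower and a median of -0.08. Tomm34 (0.56) and Tomm5 (0.68) were higher, and Pam16 of the import motor (-1.08), Timm8b (-0.85) and Tomm7 (-0.47) were lower. Of 8 measured chaperones and proteases 1 was higher and 2 lower, with a median of -0.36. Hspa9, the chaperone of the import motor, was higher at 0.55, and the prohibitins Phb (-0.98) and Phb2 (-0.51) were lower. Of 3 measured regulators Myc was lower at -0.77, and Yy1 (0.50, adjusted p = 0.0531, limma) and Sp1 (-0.21) were not called.

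Set against the cytosolic ribosome, the mitochondrial one had the larger share of called genes in the deposited ratios. That share, 32.6%, was still below the 43.6% of all 4413 genes. Of 79 measured cytosolic ribosomal protein genes 7 were higher and 9 lower, with a median of -0.10. The list was made by gene name, and 1 of its lower genes, Rps19bp1 (-0.68), encodes a protein that binds Rps19 and is no ribosomal protein. Of 68 respiratory chain and ATP synthase genes 6 were higher and 7 lower, with a median of -0.00. The differences between these shares were not tested. In the scanner signals 61 of 81 cytosolic genes were higher, with a median of 2.31, where the mitochondrial ribosomal proteins had 2 of 63 and a median of -0.06. Of all 7310 genes 5.16% were higher there. The cytosolic median thus changed from -0.10 to 2.31 between 2 processings of the same arrays. The part of spot brightness in this contrast was not tested. Of the respiratory chain genes 16 of 73 were higher there, with a median of 0.08.

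Cell type markers moved on the same arrays as the members. The summed processed signal of the measured T cell markers was 7545 and 11412 in the hyperglycemic mice and 17735 and 27195 in the pool, and that of the B cell markers was 10594 and 17846 against 15981 and 25594. The summed signal of the exocrine pancreas markers was 1847320 and 3269500 in the hyperglycemic mice and 1325640 and 1840700 in the pool, and that of the erythroid markers was 112013 and 184708 against 49155 and 80709. All measured markers were well above background in every channel, which holds for every gene probe of the deposited table. Their part in the ratios of the mitochondrial ribosomal proteins was not tested.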

How the data were processed

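RNA of 2 hyperglycemic mice and 1 pool of 2 euglycemic mice was measured on 2 two-colour arrays of Agilent design 014868 on 1 slide. Per the file headers, scans were read with Feature Extraction 10.7.3.1, and spot and background columns hold raw intensity. The processed intensity columns were made by background subtraction and dye normalisation, per the file headers, and their log ratio is a log10 of Cy5 over Cy3. The deposited table gives a log2 ratio (Cy5 over Cy3) at 5098 probes, 5072 of them gene probes. How its probes were chosen, and whether its columns were centred (medians 0.08 and 0.03), is not given in the sources used here. Its values differ from those of the array files by at most 0.19 on the log2 scale, for probes with replicate spots.

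Both fits used limma 3.58.1 in R 4.3.3: the mean log2 ratio of the 2 mice was tested against 0 (two-sided, 1 residual degree of freedom before moderation), with Benjamini-Hochberg adjustment over all tested gene probes. Deposited ratios were used as given. Scanner signals were corrected by normexp (offset 50), loess-normalised (span 0.3) and kept where 1 or both channels were well above background on each array (8815 probes). Outlier spots (338 and 184) were left out; 0 spots were saturated. A gene takes its brightest probe, named genes are all members in the deposited table, and probe positions are mm8. All 75 gene names are current RefSeq symbols. The fit was tested on simulated data. The number of arrays limits the precision. The p-values rest on the spread between these 2 mice, moderated by that of all tested probes, and cover no spread among euglycemic mice. The members and gene lists were chosen with earlier results of these data known.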

Additional observations from a re-analysis of the deposited data

How the results depend on the processing

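Each log2 ratio compares a mouse with the pool on the same array. Pairing with individual controls was not possible, because 1 pool served as the control on both arrays and no replicate number links it to a mouse. Relative to 4 higher and 10 lower member probes in the deposited ratios, counts of higher and lower were 2 and 0 in the scanner signals, 0 and 0 with both channels above background, without a filter, with offset 10 and in processed signals, 0 and 78 with median centring in place of loess, and 8 and 12 with a variance trend. They were 4 and 12 in scanner signals without background correction, 4 and 11 after centring the deposited ratios and 6 and 12 after loess on them. Where limma called 0, unadjusted p under 0.05 held for 3, 8, 4 and 4 higher probes and 5, 19, 9 and 23 lower ones in those 4 settings, and for 12 lower ones in the scanner signals. Among all probes, higher and lower were 1274 and 931 of 5072 as deposited and 1312 and 1008 with a variance trend. Centring these gave 1207 and 1114, and loess on them 1150 and 1106. The scanner signals gave 418 and 43 of 8815, 1180 and 919 without background correction, and 1 and 8618 with median centring. With offset 10 they gave 93 and 9, and with both channels above background 94 and 0 of 5072. Without a filter they gave 24 and 0 of 41162, and processed signals gave 0 and 0. Median centring left 8815 probes at a median of -2.01, and processed signals left 8815 at -0.18, against 0.06 for the 5072 deposited probes. Median centring alone turned called genes: Mrpl2 to -1.23, Mrpl28 to -2.93, Mrpl44 to -1.57 and Mrps18c to -2.47.

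The large-subunit median of 0.12 became -0.052 in the scanner signals, -0.019 with both channels above background, -0.041 without a filter, -0.069 with offset 10, -0.0078 without background correction, -2.63 with median centring, -0.070 in processed signals, 0.067 after centring the deposited ratios and 0.024 after loess on them. The genes covered were not the same: 0.12 was over 30 large-subunit genes and -0.052 over 39. Processed signals were filtered like the scanner signals, so -0.070 also covers genes outside the deposited table. Among measured genes, Mrpl2 (1.32) and Mrpl24 (-1.51) had the same mean in processed as in deposited ratios. The small-subunit median of -0.11 became -2.17 with median centring. The difference of 0.23 became 0.023, 0.052, 0.031, 0.061 and 0.060 in the first 5 of these settings and -0.46 with median centring. Without 1 mouse in turn, the large-subunit median was 0.043 to 0.11, the small-subunit median -0.24 to 0.016 and the difference 0.094 to 0.28; the cause of these changes was not tested. A fit without 1 mouse has no residual degrees of freedom and gives no test.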
